A study of Mus musculus with 24 samples.

Results

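The 40 genes described here act in mitosis and in its preparation in G2, and were taken by symbol from the 54146 genes of the count tables. They are the cyclins A2, B1, B2 and F with Cdk1 and its activating phosphatase Cdc25c, the mitotic kinases, the subunits of the chromosomal passenger complex, the spindle checkpoint and the ubiquitin enzymes that end mitosis, 7 kinesins, 7 centromere and kinetochore proteins, and factors of spindle assembly, chromosome structure and cytokinesis. All 40 symbols matched a gene, and all passed the filter on low counts in both experiments, with at least 154 reads for each gene in every library. In a dividing cell most of these genes are repressed in G0 and G1 by the DREAM complex and switched on together in G2, when the MuvB core joins B-MYB and FOXM1. In the intestine they are read mainly from the dividing cells of the crypt, and a differentiated enterocyte or Paneth cell makes little of them.

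RNA came from mouse small intestinal organoids, which are cultures of the gut epithelium, in 2 experiments of 4 groups with 3 libraries each. The first held WT, Cdk8-/-, Cdk19-/- and double knockout organoids, labelled as lacking 1 or both of the kinases CDK8 and CDK19 of the Mediator complex, all cultured for 7 days with 600 nM 4-hydroxytamoxifen, WT included. By the study's methods, Cdk8 was deleted as a lox/lox allele by Villin-CreERT2, a Cre recombinase made in intestinal epithelium, Cdk19 was disrupted with a lentiviral CRISPR guide under puromycin selection, and single organoids were picked and expanded, so that a Cdk19-disrupted line may be 1 clone; the methods give the organoids without Cre as Cdk8 lox/lox as well. The second experiment held WT organoids treated for 16 h or 24 h with the vehicle DMSO or with Senexin B, an inhibitor of CDK8 and CDK19, at 10 µM by the methods; its labels repeat the tamoxifen step. The labels call the samples biological triplicates and do not say whether these were separate animals or cultures, so the p-values measure the spread between these libraries. The labels of the first experiment also name 4T1, a mammary carcinoma line, as the cell type. The 8 intestinal epithelium markers summed to 5527 to 8622 CPM (counts scaled to library size) in those 12 libraries, and the 8 mammary epithelium markers to 19.8 to 129 CPM, nearly all of it Areg, which is not particular to that tissue. Of the mammary list Csn2 was at 0 in all 4 groups, and Areg and Csn3 were called higher in double knockout than in WT organoids.

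What the genes share beyond their function was read from their promoters. RefSeq (GRCm38.p6) gave a window of 250 bases before and 50 bases after the start for 33 of the 40 genes, in 35 windows. The CHR element (TTTGAA or TTCGAA, both strands), the site that the LIN54 subunit of DREAM and MMB contacts, was found in the windows of 27 of the 33 genes, against 19.2% of all 32817 windows of this length. A CCAAT box (CCAAT, both strands, where matches on opposite strands may overlap), the site of the factor NF-Y, was found for 25 genes, against 37.4% of all windows. Both motifs occurred for 23 genes, against 7.51% of all windows. The CHR matches lay close to the start: 25 genes had one beginning within 50 bases of it, against 5.31% of all windows. With the 50 bases after the start left out, 40% of the genes' windows held a CHR element, against 17.1% of all windows. Birc5, Ccnb1, Cenpe, Mad2l1, Nuf2 and Nusap1 had no CHR match in the window, and Ccna2, Cdc25c, Aurkb, Incenp, Kif20a, Spc24 and Tpx2 had no window. A match of letters is a description and not a bound site.

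The stretches below show this arrangement, with the CHR and CCAAT matches in capitals. Cdk1, Ccnf, Top2a and Ccnb2 are shown because they were lower in double knockout organoids, Cdc20 and Ube2c because they were higher after 24 h of Senexin B, and Kif11 because it holds the same motifs and passed neither test. Each is written 5′ to 3′ on the gene's strand and ends before the start annotated by RefSeq, except for the short stretch of Ccnb2, which spans it. The gene spans given with single genes come from the annotation of the count tables, whose start lies within the stretches of Cdk1, Cdc20, Ube2c and Ccnb2.
Cdk1 (chr10:69352913-69353002, minus strand): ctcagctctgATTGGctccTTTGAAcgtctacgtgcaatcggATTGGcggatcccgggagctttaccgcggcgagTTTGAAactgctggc
Ccnf (chr17:24251485-24251559, minus strand): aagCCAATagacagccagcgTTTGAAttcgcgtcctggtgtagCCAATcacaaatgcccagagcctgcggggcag
Top2a (chr11:99024200-99024419, minus strand): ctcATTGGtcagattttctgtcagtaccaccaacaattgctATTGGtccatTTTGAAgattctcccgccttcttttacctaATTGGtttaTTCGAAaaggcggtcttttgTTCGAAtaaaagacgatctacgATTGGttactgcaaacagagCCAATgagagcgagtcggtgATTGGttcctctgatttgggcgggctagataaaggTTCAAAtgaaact
Ccnb2 (chr9:70421535-70421564, minus strand): tcagcggcgcggtaTTTGAAtcgcggaccg
Cdc20 (chr4:118437344-118437403, minus strand): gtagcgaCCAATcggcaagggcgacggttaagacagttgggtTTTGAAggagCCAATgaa
Ube2c (chr2:164769834-164769909, plus strand): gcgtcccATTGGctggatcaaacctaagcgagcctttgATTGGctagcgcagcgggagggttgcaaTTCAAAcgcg
Kif11 (chr19:37376332-37376381, plus strand): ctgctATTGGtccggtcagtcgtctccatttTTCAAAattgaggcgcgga
Cdk1 has 2 CHR and 2 CCAAT matches in 90 bases, and Top2a has 4 CHR and 6 CCAAT matches in 220 bases.

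**Figure D1:**
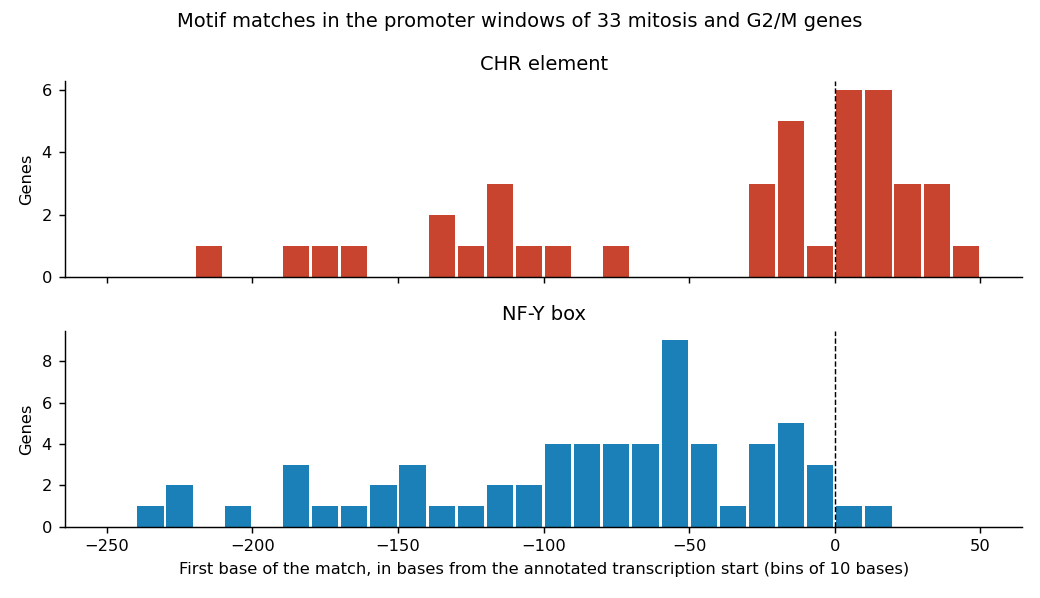
Number of mitosis and G2/M genes, of 33 with a promoter window, that have a CHR element (top) or an NF-Y box (bottom) beginning in each bin of 10 bases from 250 bases before to 50 bases after the annotated start (dashed line). CHR matches gather around the start, with up to 6 genes in a bin, and NF-Y boxes lie mostly before it, with up to 9 genes in a bin.

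The libraries differed in ways that touch these genes. The genotype libraries held 14636861 to 15473180 counts in the strand column used and the Senexin B libraries 27075937 to 28405118. The targeted genes were read first. Cdk8 CPM were 42.5, 43.2 and 35.8 in WT and 47.3, 44.1 and 43.2 in double knockout libraries 1 to 3. By the methods the deletion removes exon 2. Reads of that exon were not counted apart, so whether Cdk8 was deleted in these libraries was not tested. Cdk19 CPM were 47.6, 50.1 and 48.6 in WT, 48.8, 28.1 and 28.3 in the libraries labelled Cdk19-/- and 27.0, 23.8 and 51.7 in those labelled double knockout. The libraries labelled Cdk19-/- replicate 1 and double knockout replicate 3 thus had Cdk19 at the WT level, and the 4 other Cdk19-targeted libraries lay at 23.8 to 28.3 CPM; whether the gene was disrupted in these 2 libraries was not tested, and results are also given without these 2 libraries. Exons of 11 of the 40 genes overlap a gene on the other strand, from which the unstranded genotype libraries cannot tell them apart; the largest overlap was that of the kinesin Kif20a with Cdc23, 29.3% of its exonic bases. Cdk8-/- replicate 3 stood apart from its group: it was the lowest of the 3 libraries for 40 of the 40 genes. In the Senexin B experiment replicate 1 was the lowest of its group for 32 genes in DMSO at 16 h, 38 in DMSO at 24 h and 34 in Senexin B at 24 h, and for 16 genes in Senexin B at 16 h, where replicate 3 was the lowest for 22. Over all genes, same-numbered DMSO and Senexin B libraries of 1 time deviated together, most clearly replicate 1 (correlation 0.303 at 16 h and 0.377 at 24 h). The lowest same-numbered correlations, 0.101 and 0.137, were below the highest between libraries of different number, 0.154 and 0.147.

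By level per length (CPM per kilobase of exon), the genes spread over a wide range in WT organoids. Cyclin A2 (61.6 ± 2.88, mean ± SD, n = 3), Plk1 (59.9 ± 4.49), the polo-like kinase of mitotic entry, and Ube2c (58.1 ± 1.84) were at the top, and their order is within their spread. Ndc80 (3.93 ± 0.286) and Cdc25c (3.28 ± 0.467) were at the bottom. In DMSO at 16 h Plk1 (87.7 ± 10.7) and Cdc20 (82.4 ± 1.55), the activator of the anaphase-promoting complex, were the highest. Ccnb1, at rank 33 of 40 in WT and rank 14 in DMSO, has 5 other genes that share stretches of its sequence of up to 1294 bases, so its level is uncertain; the experiments also differ in library type, and no level was compared between them.

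Many mitotic genes were lower in double knockout organoids than in WT. Of the 40 genes, 17 were called lower and 0 higher (edgeR quasi-likelihood test, Benjamini-Hochberg adjusted p under 0.05 over 15602 genes), where 7.9% of all genes tested were called lower and 9.41% higher. The fitted change was downward for 39 of 40 genes, against 51.1% of all genes, and its median was −0.39 on the log2 scale, against −0.01 over all genes. The 3 double knockout libraries lay below the 3 WT libraries for 32 genes, where 20.1% of all genes were separated in this direction. In bulk RNA, fewer dividing cells and less RNA per dividing cell cannot be told apart. Markers of other cell types moved too: 7 of 10 crypt stem cell markers were called lower and 6 of 10 enterocyte and 6 of 8 Paneth cell markers higher. The enterocyte markers summed to 13042 to 13479 CPM in WT and 18514 to 24337 CPM in double knockout organoids, the crypt stem cell markers to 4054 to 4369 and 3164 to 3198 CPM, and the Paneth cell markers to 1306 to 1725 and 2562 to 5240 CPM, with no marker of these 3 lists at 0. Of 7 goblet cell markers 2 were called higher. The 8 mesenchymal markers summed to 2.58 to 3.1 CPM in WT and 1.77 to 2.83 CPM in double knockout organoids, with Col1a2, Col3a1 and Lum at 0 in both; 2 of them were tested and Acta2 was called higher, at 0.0673, 0.137 and 0.0699 and 0.41, 1.58 and 1.23 CPM. The 8 blood and endothelial markers summed to 1.68 to 2.41 and 4.16 to 6.46 CPM, and 0 of the 3 tested were called. The part of cell composition in the result was not tested.

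Of the cyclins and their kinase, 5 of 6 were called lower. The clearest was Ccnf (chromosome 17, 24222198 to 24251484, minus strand), cyclin F, which recruits substrates to an SCF ubiquitin ligase. Ccnf CPM were 61.0, 62.0 and 56.0 in WT and 41.8, 43.7 and 35.7 in double knockout libraries. The groups did not overlap, and the log2 fold change was −0.56 ± 0.12 (SE; edgeR adjusted p = 0.00923). Cdk1 (chromosome 10, 69335146 to 69352938, minus strand), the kinase that drives entry into mitosis, had 109.7, 111 and 111 CPM in WT and 75.4, 89.3 and 63.0 CPM in the libraries labelled double knockout. Its WT values were almost equal, and its log2 fold change was −0.54 ± 0.14 (edgeR adjusted p = 0.0191). Ccna2, cyclin A2 of S phase and G2, fell from 246, 243 and 265 to 198, 185 and 149 CPM (−0.50 ± 0.14, edgeR adjusted p = 0.0302). Of its exonic bases, 12.5% overlap Exosc9 on the other strand, and with the unstranded counts its adjusted p was 0.050 (edgeR). Ccnb2, cyclin B2, fell from 84.7, 85.2 and 87.2 to 71.3, 68.5 and 61.3 CPM (−0.35 ± 0.10, edgeR adjusted p = 0.0367). Cdc25c, the phosphatase that activates Cdk1, had 14.6, 15.1 and 18.8 CPM in WT and 11.3, 10.1 and 11.2 CPM in double knockout organoids (−0.57 ± 0.15, edgeR adjusted p = 0.0257). Ccnb1, the B1 counterpart of Ccnb2, had 27.0, 28.8 and 31.9 CPM in WT and 22.7, 24.8 and 20.0 CPM in double knockout organoids, again without overlap, but its change of −0.38 ± 0.15 did not pass (edgeR adjusted p = 0.103).

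Among the kinases, Aurkb and Ttk were called lower and Plk1, Aurka and Bub1 were not. Aurkb (chromosome 11, 69045647 to 69051664, plus strand), the catalytic subunit of the chromosomal passenger complex, which corrects faulty attachments of chromosomes, had 93.2, 84.5 and 87.3 CPM in WT and 66.6, 65.8 and 54.2 CPM in double knockout libraries, a change of −0.51 ± 0.13 (edgeR adjusted p = 0.0216). Ttk, the checkpoint kinase also named Mps1, had 38.0, 33.7 and 41.5 and 28.1, 23.4 and 20.3 CPM (−0.66 ± 0.17, edgeR adjusted p = 0.0222). Plk1 overlapped between the groups, with 138, 137 and 120.2 and 137, 115 and 78.3 CPM. Double knockout replicate 1 was at the WT level for Plk1 and replicate 3 far under it. Of the 3 other passenger subunits, Birc5 (survivin) was called lower (−0.54 ± 0.15, edgeR adjusted p = 0.0272), while Incenp (−0.38 ± 0.13, 0.0611) and Cdca8 (−0.24 ± 0.14, 0.26), borealin, did not pass by the same test.

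At the kinetochore, 5 of 7 centromere and kinetochore genes were called lower, among them all 4 subunits of the NDC80 complex, the rod that holds spindle microtubules. Ndc80 itself (chromosome 17, 71496100 to 71526857, minus strand) had 27.4, 25.6 and 23.7 CPM in WT and 16.7, 17.7 and 18.4 CPM in double knockout organoids (−0.54 ± 0.13, edgeR adjusted p = 0.014). The log2 fold changes of its partners were −0.51 for Nuf2, −0.65 for Spc24 and −0.39 for Spc25, with edgeR adjusted p of 0.0369, 0.0292 and 0.0382. Cenpa, the histone H3 variant that marks the centromere, fell from 77.8, 70.0 and 71.6 to 56.7, 53.6 and 51.8 CPM (−0.44 ± 0.11, edgeR adjusted p = 0.0227). The large outer proteins Cenpe (a kinesin motor) and Cenpf had wide errors, with changes of −0.22 ± 0.24 and −0.40 ± 0.26, and did not pass.

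Of the spindle, motor and chromosome factors, 4 of 13 were called lower. Nusap1 (chromosome 2, 119618298 to 119651244, plus strand), which bundles spindle microtubules, had 108, 109 and 116 CPM in WT and 76.5, 76.6 and 73.0 CPM in double knockout organoids (−0.56 ± 0.13, edgeR adjusted p = 0.0127). The kinesin Kif2c, which shortens microtubules at the centromere, fell from 44.3, 45.8 and 47.2 to 34.6, 33.1 and 29.2 CPM (−0.50 ± 0.13, edgeR adjusted p = 0.0215), and Kif23 of the central spindle was also called lower (−0.49). The other 5 kinesins did not pass, with log2 fold changes from −0.50 (Kif11, the motor that separates spindle poles) to −0.14 (Kif20b), and with Kif4, Kif20a and Kif22 between them. The microtubule factors Prc1, Tpx2 and Hmmr (−0.28, −0.30 and −0.42) did not pass either, nor did anillin, Anln, of the cleavage furrow (−0.24). Top2a, topoisomerase II of chromosome condensation, fell from 419, 421 and 410.4 to 300.5, 288 and 284 CPM (−0.52 ± 0.15, edgeR adjusted p = 0.0356). Mki67, which encodes the proliferation marker Ki-67, had the lowest fitted change of the 40 genes, but its replicates spread: 352, 299 and 355 CPM in WT and 254, 174 and 207 CPM in double knockout organoids (−0.66 ± 0.25, edgeR adjusted p = 0.092). Of the checkpoint and ubiquitin genes Cdc20, Bub1b, Mad2l1 and Ube2c, 0 of 4 were called, at −0.35 to −0.11, where an unadjusted p was under 0.05 for 27 of the 40 genes in all. Ect2, the exchange factor that starts cleavage of the cell, was the only gene with an upward fit: 90.3, 92.0 and 101 CPM in WT and 102, 112 and 118 CPM in double knockout organoids, a separation (18.7% of all genes were separated upward) that did not pass (0.23 ± 0.17, edgeR adjusted p = 0.376).

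The count of 17 depended on which libraries were used, and the direction did not. Leaving out each WT or double knockout library in turn left 3 to 13 genes called lower and 0 higher, with a median of −0.42 to −0.33; it was 3 without WT replicate 1 (Ccnf, Cdc25c and Nusap1; 4.01% of all genes were called lower in that fit), 5 and 7 without WT replicates 2 and 3 (4.03% and 5.04% of all genes), and 7 and 4 without the libraries labelled double knockout replicates 2 and 3 (5.47% and 7.04% of all genes). The 4 of 40 in the last fit are close to that share. Ccnf and Nusap1 were called in each of these 6 fits. Without both libraries that had Cdk19 at the WT level, 8 genes were called lower (8.69% of all genes were). With Cdk8-/- replicate 3 taken out of the fit, whose 12 libraries share 1 estimate of the spread, 23 genes were called lower (9.52% of all genes were).

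**Figure D2:**
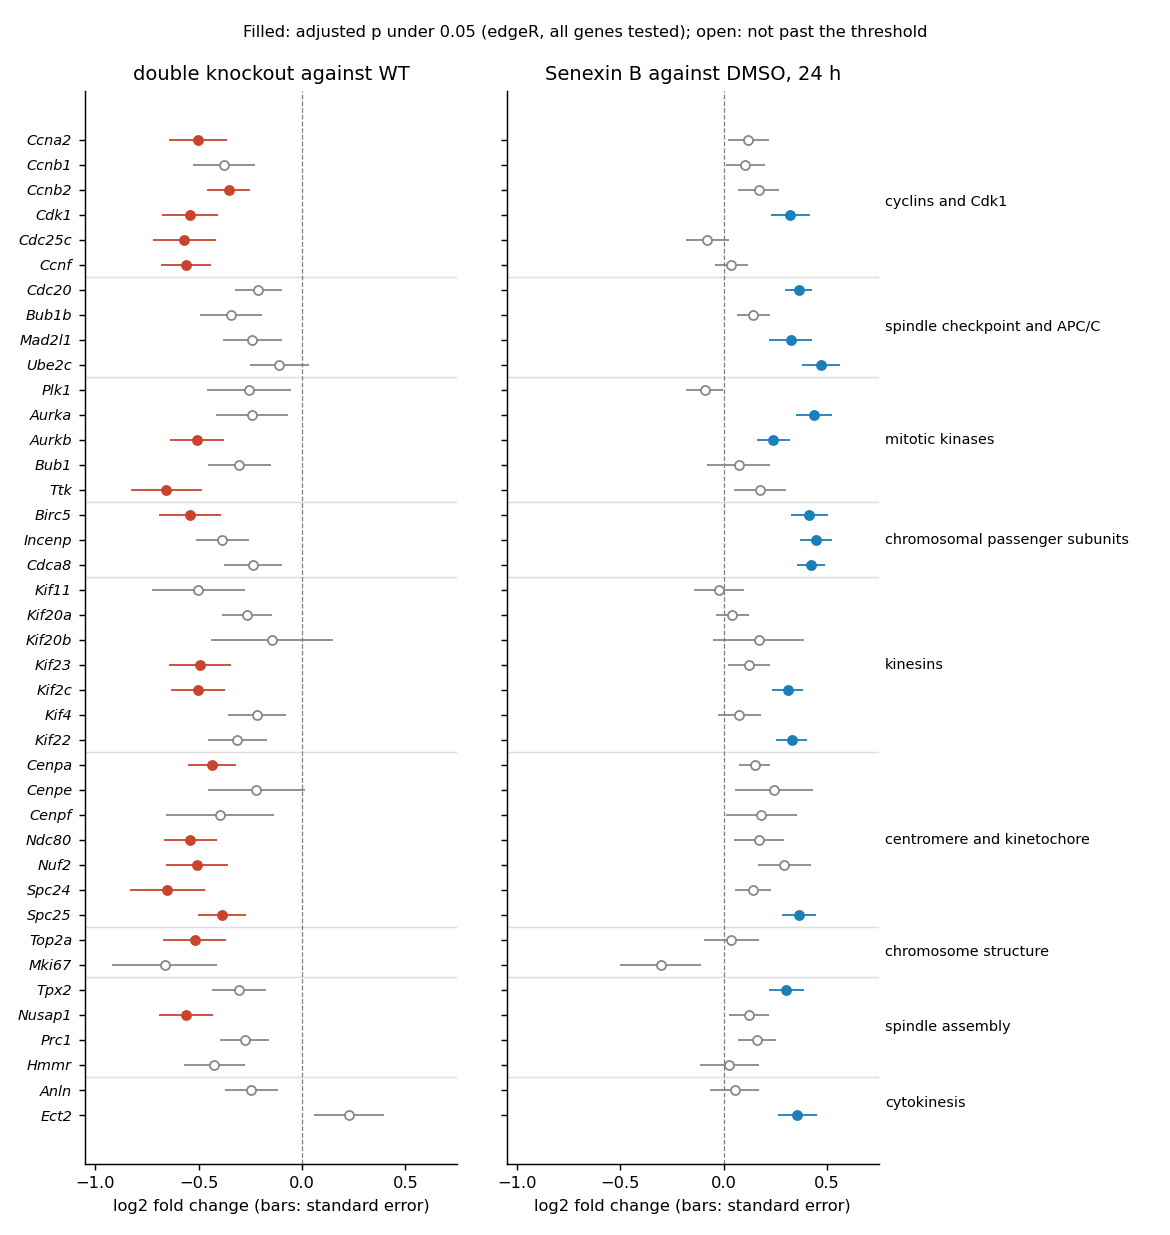
Log2 fold change with its standard error for each of the 40 genes, ordered by role, in double knockout against WT organoids (left) and after 24 h of Senexin B against DMSO (right); filled points passed an adjusted p under 0.05 over all genes tested and open points did not. On the left 17 genes are filled and all lie below 0, and on the right 14 genes are filled and all lie above 0.

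With 1 kinase targeted alone, no gene of the 40 passed this test. In Cdk8-/- organoids 0 were called, where 5.15% of all genes were, the median was −0.06 (0.07 without Cdk8-/- replicate 3), and 1 gene had an unadjusted p under 0.05 (edgeR); DESeq2 called 1 higher, Ect2, where it called 4.36% of all genes higher. Ect2 CPM were 159, 129 and 119, above the 90.3, 92.0 and 101 of WT, and its log2 fold change was 0.52 ± 0.17 (edgeR adjusted p = 0.0963; 0.0456 with DESeq2). Mki67 had the lowest fit (−0.38 ± 0.25), with 227, 349 and 197 CPM. The median hid a split between the replicates. Over the 40 genes, the median log2 ratio to the WT mean was 0.08 in Cdk8-/- replicate 1, 0.10 in replicate 2 and −0.41 in replicate 3, which is in the range of the 3 double knockout libraries (−0.32, −0.35 and −0.52). Cdk1 shows it, with 118, 108 and 83.1 CPM in Cdk8-/- replicates 1 to 3, and so does Ccnb1 with 34.4, 37.9 and 24.4 CPM. The S phase genes of that library were lower as well, with summed CPM of 3537, 3444 and 2659.8, and 19.7% of its reads mapped to several places, against 21.7% and 22.0% in the other Cdk8-/- libraries and 19.5% to 20.1% in double knockout ones. The Paneth cell markers, 8 of 8 called higher in Cdk8-/- organoids, were high in all 3 libraries, at 5320.4, 4097 and 3987 CPM. What set replicate 3 apart was not tested.

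In Cdk19-/- organoids 0 of the 40 genes were called, as were 0% of all genes by edgeR; 2 genes had an unadjusted p under 0.05, DESeq2 called 0 of the 40, where it called 0.983% of all genes lower and 1.03% higher, and the median was 0.06. Here the library labelled Cdk19-/- replicate 1, which had Cdk19 at the WT level, differed from replicates 2 and 3. Kif11 CPM were 87.6, 177 and 169.6 in Cdk19-/- replicates 1 to 3 against 109, 111 and 102 in WT. Kif20b (31.4, 74.8 and 71.7 CPM), Incenp (106, 137 and 142) and Ect2 (92.4, 153 and 148) were likewise lowest in replicate 1. Against the WT mean, replicate 1 was below for 21 of the 40 genes and above for 19. Some genes were well under WT there: Mki67 had 204 CPM, against 352, 299 and 355 in WT. Cenpf had 38.6 CPM, against 80.0, 63.5 and 66.9. Kif11 and Kif20b in replicate 1 were also below every WT library. Without the library labelled replicate 1 these 4 genes were called higher than in WT, at log2 fold changes of 0.92 for Kif20b, 0.71 for Kif11, 0.69 for Ect2 and 0.52 for Incenp (1.77% of all genes were called higher in that fit); without both libraries that had Cdk19 at the WT level, 3 genes were (2.17% of all genes). The lowest fit in Cdk19-/- organoids was that of Ndc80 (−0.17 ± 0.13), with 19.9, 24.2 and 24.2 CPM. Cyclin genes were closer to each other: Ccna2 had 234, 256 and 236 CPM and Ccnb2 97.0, 93.3 and 88.8 CPM in Cdk19-/- organoids. The crypt stem cell markers summed to 4862 to 7108 CPM in Cdk19-/- and 4054 to 4369 CPM in WT organoids. The enterocyte markers summed to 9078 to 12402 and 13042 to 13479 CPM. With all libraries 0 markers of these lists were called, and the part of composition was not tested.

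Against each single knockout the double knockout was lower for 40 of 40 genes by the fit. Of all genes 51.1% were lower against Cdk8-/- and 51.2% against Cdk19-/- organoids. Compared with Cdk19-/- organoids 24 genes were called lower and 0 higher (11% of all genes were called lower and 14.4% higher), with a median of −0.45, and Kif11 had the lowest value (−0.93 ± 0.23, edgeR adjusted p = 0.0105). Leaving out each library of these groups gave 10 to 25 genes, with 10 without Cdk19-/- replicate 2 (6.5% of all genes were called lower) and 14 without the library labelled double knockout replicate 2 or 3 (8.08% and 10.6%); without both libraries that had Cdk19 at the WT level it was 20 (13.4% of all genes were called lower). With all libraries 8 of 10 crypt stem cell markers were called lower than in Cdk19-/- organoids. Of the other markers 9 of 10 for enterocytes, 6 of 7 for goblet cells and 5 of 8 for Paneth cells were called higher. The part of composition was not tested. Compared with Cdk8-/- organoids 0 genes were called (0.0256% of all genes were), 28 had an unadjusted p under 0.05, and the median was −0.35. DESeq2 called 0 of the 40 as well, where it called 1.45% of all genes lower and 1.54% higher. Without Cdk8-/- replicate 3 the same comparison called 22 genes lower, where 3.22% of all genes were called lower and 2.07% higher, with a median of −0.48; Spc24 (−0.64), Ccnb1 (−0.67) and Kif23 (−0.59) were among them. The part of the double knockout effect beyond the sum of the single knockouts was negative for 40 of 40 genes, against 50.6% of all genes, with a median of −0.42. By edgeR 0 of these passed (0.0256% of all genes did), with 18 at an unadjusted p under 0.05, and DESeq2 called 1 lower, Incenp (−0.70), where it called 1.18% of all genes lower; without both libraries that had Cdk19 at the WT level edgeR called 3 lower (1.8% of all genes were), and it called 4 without Cdk8-/- replicate 3 (0.995%) and 3 without the library labelled Cdk19-/- replicate 1 (1.14%). These comparisons use the same double knockout libraries and are not independent.

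**Figure D3:**
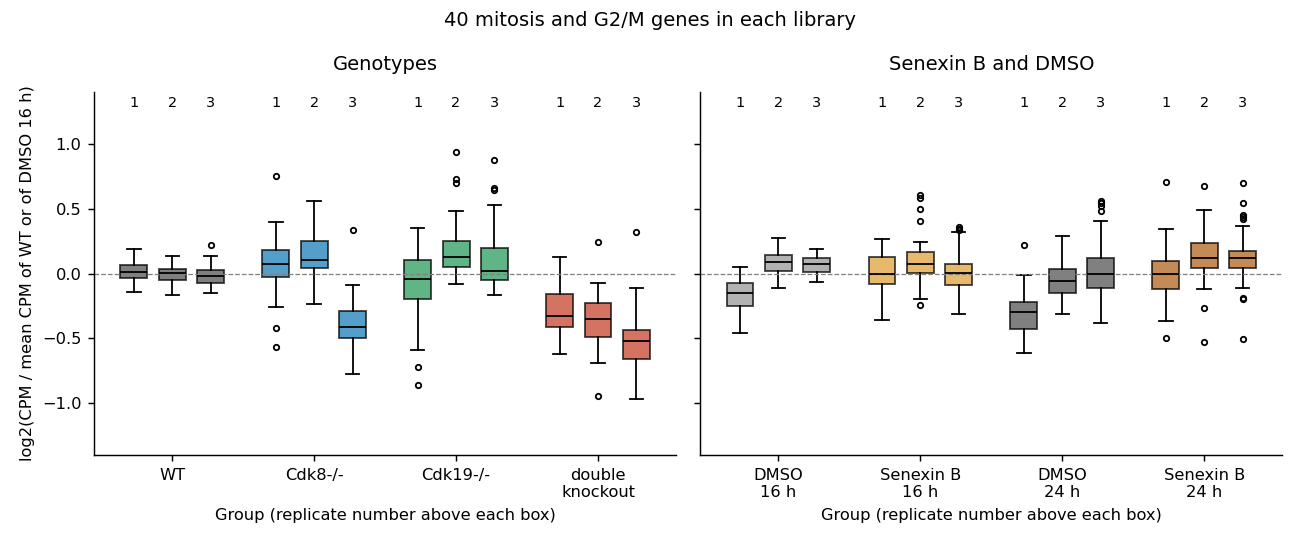
Log2 ratio of CPM to the mean of WT (left) or of DMSO at 16 h (right) for the 40 genes in each library; boxes hold the middle range of the genes with the median as a line, whiskers reach 1.5 times that range, circles are genes beyond it, and the number above each box is the replicate. The 3 double knockout libraries and Cdk8-/- replicate 3 lie below 0, with medians of −0.52 to −0.32, and DMSO at 24 h replicate 1 is the lowest of the Senexin B experiment, at −0.30.

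The inhibitor of both kinases was followed by few changes at 16 h and by higher levels of some of these genes at 24 h. After 16 h 1 of 40 genes was called higher and 0 lower, where 4.36% of all genes tested were called higher and 3.39% lower, and the median was 0.04. The gene was Ect2, with 72.8, 97.0 and 89.1 CPM in DMSO and 103, 114 and 111 CPM in Senexin B (0.34 ± 0.10, edgeR adjusted p = 0.042). The lowest fit was that of Spc24, with 32.6, 35.4 and 35.3 CPM in DMSO and 30.7, 29.1 and 27.8 CPM in Senexin B (−0.24 ± 0.09). Cenpf had the highest, with 38.1, 43.9 and 44.9 and 47.3, 63.4 and 52.4 CPM (0.36 ± 0.17). Since same-numbered libraries of 1 time deviated together, the replicate number was also fitted as a block: then Ect2 (0.35), Ube2c (0.27) and Cenpf (0.36) were called higher and Spc24 (−0.23) lower, where 7.49% of all genes were called higher and 7.34% lower. Ect2 did not pass without DMSO replicate 1 or 3 or without Senexin B replicate 1, 2 or 3, at edgeR adjusted p of 0.0606 to 0.130; its log2 fold change stayed at 0.23 to 0.43. It did not pass either with only these 2 groups fitted.

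After 24 h of Senexin B 14 of the 40 genes were called higher and 0 lower, where 14.8% of all genes tested were called higher and 12.7% lower. The fitted change was upward for 36 genes, against 50.1% of all genes, and its median was 0.17, against 0.00 over all genes. The 3 treated libraries lay above the 3 DMSO libraries for 15 genes, where 23.5% of all genes were separated in this direction. The SD between replicates of a group, for the median level of the 40 genes, was 0.11. Of 10 crypt stem cell markers 2 were called lower, Lgr5 among them, and 1 higher, and their summed level was 3203 to 3671 CPM in DMSO and 3345 to 3924 CPM in Senexin B. Paneth cell markers fell, with 6 of 8 called lower, from 2897 to 3104 CPM in DMSO to 1322 to 1800 CPM in Senexin B. Of 7 goblet cell markers 4 were called higher and 1 lower, with sums of 3469 to 3950.5 and 2987 to 3363 CPM, and of 10 enterocyte markers 3 were called higher and 1 lower, with sums of 5671 to 6374 and 5229.7 to 6207 CPM. The part of composition in the result was not tested.

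All 4 subunits of the chromosomal passenger complex were called higher. Cdca8 (chromosome 4, 124918465 to 124939311, minus strand) had 63.2, 71.9 and 72.2 CPM in DMSO and 92.3, 95.4 and 90.2 CPM in Senexin B, without overlap (0.42 ± 0.07, edgeR adjusted p = 0.000551). Incenp (chromosome 19, 9872296 to 9899551, minus strand), the scaffold of the complex, had 94.5, 105 and 110.2 and 126, 145 and 151 CPM (0.45 ± 0.08, edgeR adjusted p = 0.000944). Birc5 rose from 52.2, 66.1 and 60.3 to 73.1, 82.6 and 82.1 CPM (0.41 ± 0.09, edgeR adjusted p = 0.00433), and Aurkb had the smallest change of the 4, from 62.6, 74.0 and 75.6 to 80.7, 85.5 and 84.1 CPM (0.24 ± 0.08, edgeR adjusted p = 0.0382). Genes of mitotic exit were called higher too. Ube2c, the ubiquitin-conjugating enzyme of the anaphase-promoting complex, had 99.3, 122 and 122 CPM in DMSO and 147, 170.1 and 158 CPM in Senexin B (0.47 ± 0.09, edgeR adjusted p = 0.00209); 22.8% of its exonic bases overlap Tnnc2 on the other strand. Cdc20 rose from 126, 144 and 145 to 169.9, 184 and 181 CPM (0.36 ± 0.07, edgeR adjusted p = 0.00158), and the checkpoint protein Mad2l1 was called higher as well (0.32).

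Aurka, the centrosomal Aurora kinase, rose from 43.3, 51.8 and 54.3 to 62.6, 71.9 and 67.6 CPM (0.44 ± 0.09, edgeR adjusted p = 0.00235), and its activator Tpx2 was called higher too (0.30, edgeR adjusted p = 0.0175). The other calls were Kif22, Kif2c, Spc25, Cdk1 and Ect2, at 0.31 to 0.36. Ect2 (chromosome 3, 27097222 to 27153878, minus strand) had 100.4, 106 and 121 CPM in DMSO and 141, 138 and 139.8 CPM in Senexin B, and the treated values were nearly equal. The cyclins were not called: Ccna2 had 128, 156 and 159 CPM in DMSO and 147, 171 and 162 in Senexin B (0.12 ± 0.10). The log2 fold changes of Ccnb1, Ccnb2 and Ccnf were 0.10, 0.17 and 0.04. Top2a (0.04), Kif11 (−0.02), Plk1 (−0.09) and Hmmr (0.03) were close to 0 as well, none past the test. Cdc25c (−0.08), Bub1, Bub1b, Ttk, Prc1, Anln, Nusap1, Cenpa, Cenpe, Cenpf, Ndc80, Nuf2, Spc24, Kif4, Kif20a, Kif20b and Kif23 did not pass either. Mki67 had the lowest fit, with 195, 259.9 and 343 CPM in DMSO and 191, 199 and 256 CPM in Senexin B (−0.30 ± 0.20, edgeR adjusted p = 0.269). In both groups replicate 1 was the lowest and replicate 3 the highest, and with the replicate block the change of −0.28 was called lower (edgeR adjusted p = 0.0423), as Nuf2 (0.30) was called higher. In that blocked fit 15 of the 40 genes were called higher and 1 lower, where 19.3% and 17.6% of all genes were.

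Replicate 1 mattered here as well. Leaving out each library in turn gave 9 to 16 calls at 24 h, the lowest without DMSO replicate 1, where 10.6% of all genes were called higher, and Cdca8, Incenp, Cdc20, Ube2c, Aurka, Birc5, Kif22, Spc25 and Kif2c were called in all 6 fits. The median of the 40 genes was 0.07 to 0.24 in these fits, the lowest again without DMSO replicate 1. Without replicate 1 of all 4 groups, an alternative chosen after seeing the data, 14 genes were called higher and Mki67 lower at 24 h, where 16.8% of all genes were called higher and 15.4% lower. Aurkb was not among the 14, so that 3 of the 4 passenger subunits were called there, and Nuf2 was. At 16 h the same alternative called Ect2 higher and Ccnb1, Kif20a, Nuf2 and Spc24 lower, where 7.61% of all genes were called higher and 6.97% lower.

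The DMSO groups also differed by time. Between 16 h and 24 h of DMSO, 6 of the 40 genes were called lower (6.59% of all genes tested were) and 1 higher (4.52% were), with a median of −0.10. The lower genes were Plk1, Aurka, Birc5, Cdca8, Kif22 and Spc24, and Ect2 was the higher one. Plk1 CPM were 179.9, 179 and 220.0 at 16 h and 126, 155 and 152 at 24 h (−0.41 ± 0.09, edgeR adjusted p = 0.0128). Aurka fell from 56.8, 62.3 and 63.6 to 43.3, 51.8 and 54.3 CPM, and its values in Senexin B were 68.9, 72.0 and 66.8 at 16 h and 62.6, 71.9 and 67.6 at 24 h. Both comparisons use the DMSO libraries of 24 h. Leaving out each DMSO library in turn gave 0 to 9 calls, where 1.59% to 7.6% of all genes were called lower. Without DMSO replicate 1 of 24 h, or replicate 3 of 16 h, 0 genes were called between the times, where 1.93% and 1.59% of all genes were called lower. Without DMSO replicate 2 or 3 of 24 h 4 and 2 genes were called lower, where 4.24% and 3.5% of all genes were, so that 2 of 40 is near the share of all genes. With only these groups fitted 0 were called, where 1.45% of all genes were called lower and 1.12% higher. With the replicate block 13 were called lower and 1 higher, where 11.7% and 9.5% of all genes were, although replicate 2 did not deviate together between the DMSO times (correlation −0.05). The difference between the Senexin B effects at 24 h and 16 h was positive for 34 of 40 genes, against 52.0% of all genes, with a median of 0.13. It passed for 0 genes (0% of all genes tested), 10 had an unadjusted p under 0.05, and DESeq2 called 0, where it called 0.288% of all genes lower and 0.199% higher. Without replicate 1 of all 4 groups it passed for 7 genes, where 2.13% of all genes passed as positive and 2.8% as negative; all 7 were positive: Nuf2 (0.50), Spc24 (0.46), Tpx2 (0.44), Cdk1 (0.41), Birc5 (0.39), Ccnb1 (0.37) and Cdc20 (0.32).

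**Figure D4:**
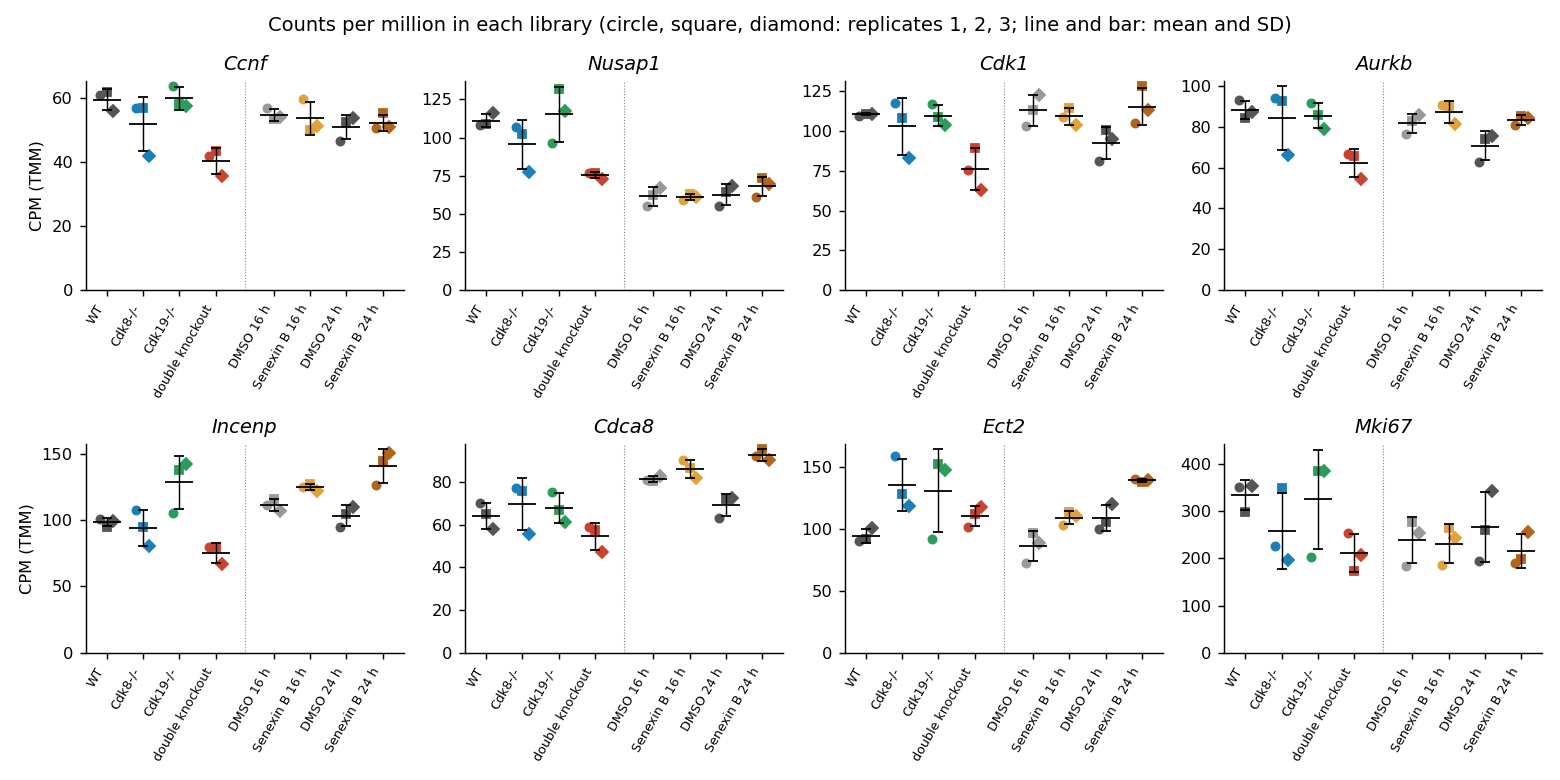
CPM after TMM normalisation of 8 of the genes in each of the 24 libraries, with replicates 1, 2 and 3 as circles, squares and diamonds and the mean ± SD of each group as a line and bar; the dotted line separates the experiments, which were normalised apart. Ccnf, Nusap1, Cdk1 and Aurkb were lower in all 3 double knockout libraries than in WT, Incenp and Cdca8 were higher in all 3 libraries with 24 h of Senexin B than in DMSO, and Mki67 shows the widest spread between replicates.

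Set side by side, the 2 experiments pointed in opposite directions for most of these genes. The fit was downward in double knockout organoids and upward after 24 h of Senexin B for 35 of the 40 genes, against 28.1% of the 14261 genes tested in both. Cdk1, Aurkb, Birc5, Kif2c and Spc25 were called lower in the first and higher in the second. Another 12 genes were called only in the double knockout comparison, 9 only after Senexin B, and 14 in neither, and whether the effects of single genes differ between the experiments was not tested. Cdc25c, Plk1, Kif11, Ect2 and Mki67 had the same sign in both, of which only Ect2 was upward. Across the 40 genes the log2 fold changes of the 2 comparisons had a Pearson r of 0.38 and a Spearman rho of 0.33; the points share length, depth and cell source and are not independent. The largest standard errors were those of Kif20b, Cenpf, Mki67, Cenpe and Kif11 in the double knockout comparison and of Kif20b, Mki67, Cenpe, Cenpf and Bub1 after Senexin B. The Spearman correlation of the standard error with exonic length over the 40 genes was 0.24 and 0.55. Genes with a CHR element were called lower in double knockout organoids in 10 of 27 cases, those with a window but no CHR in 3 of 6 and those with no window in 4 of 7; after Senexin B 9 of 27, 2 of 6 and 3 of 7 were called higher.

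Further genes of mitosis and of S phase were read from lists of their own, beside the 7.9% of all genes called lower and 9.41% higher in double knockout organoids and the 12.7% and 14.8% after 24 h of Senexin B. In double knockout organoids 31 of 41 genes of DNA replication and S phase were called lower and 0 higher, with a median of −0.49; after 24 h of Senexin B 26 of the 41 were called higher and 0 lower, with a median of 0.31. Cdt1, which licenses replication origins, had 135, 126 and 159 CPM in WT and 76.5, 81.7 and 76.1 CPM in double knockout organoids (−0.84 ± 0.12, edgeR adjusted p = 0.00111). Pold1, the catalytic subunit of DNA polymerase delta, rose from 105, 111 and 104 to 148, 148 and 148 CPM after 24 h of Senexin B (0.47 ± 0.06, edgeR adjusted p = 0.000105). Ccne2, cyclin E2 of S phase entry, was called lower in double knockout organoids (−0.75 ± 0.19) and was at −0.08 ± 0.21 after Senexin B, short of the threshold. Of 23 other spindle and cytokinesis genes 10 were called lower in double knockout organoids, with the citron kinase Cit at the smallest p (−0.70 ± 0.13), and 8 higher after Senexin B, led by Tacc3 (0.55 ± 0.07). Of 18 condensin, cohesin and separase genes 7 were called lower, led by the condensin subunit Ncapd2 (−0.74 ± 0.11), and 4 higher after Senexin B, led by Ncaph2 (0.31 ± 0.07). Of 23 inner and outer centromere proteins 7 were called lower and 11 higher in these comparisons, with Cenph at the smallest p in both (−0.71 ± 0.14 and 0.50 ± 0.09). Of the anaphase-promoting complex 2 of 15 genes were called lower and 3 of 15 higher, shares near those of all genes, with Cdc26 (−0.36 ± 0.09) and Anapc15 (0.52 ± 0.08) at the smallest p.

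Regulators of this programme were listed apart, beside the same shares of all genes (7.9% lower and 9.41% higher in double knockout organoids, 12.7% and 14.8% after Senexin B). Of 13 DREAM and MMB genes 3 were called lower in double knockout organoids, Foxm1, Rbbp4 and Rbl1. Rbbp4, a histone-binding subunit of MuvB, had the smallest p (−0.41 ± 0.09). Foxm1, a transcription factor of G2, had 70.8, 68.8 and 69.1 CPM in WT and 53.6, 47.6 and 47.8 CPM in double knockout organoids (−0.49 ± 0.11, edgeR adjusted p = 0.0131). After 24 h of Senexin B 5 were called higher and 1, Rbl2, lower, and Mybl2, which encodes B-MYB, rose from 34.5, 40.5 and 38.7 to 56.0, 66.9 and 64.1 CPM (0.72 ± 0.08, edgeR adjusted p = 4.08e-05). Lin54, the CHR-binding subunit, had log2 fold changes of −0.33 ± 0.14 and −0.04 ± 0.15 in these comparisons and passed in neither. Of 17 other mitotic regulators tested 5 were called lower and 1 higher in double knockout organoids, and 12 higher after 24 h of Senexin B. Gtse1, a microtubule-binding protein of G2, was the one that rose in both: 46.6, 47.8 and 41.8 CPM in WT, 73.2, 87.0 and 62.6 in double knockout, a mean of 33.3 ± 2.92 in DMSO and 63.4 ± 1.92 in Senexin B at 24 h (SD, n = 3). Wee1, the kinase that holds Cdk1 inactive, was called lower in the first (−0.42 ± 0.08) and higher in the second (0.41 ± 0.07). Gtse1 was called higher in Cdk8-/- organoids as well (0.83 ± 0.12, edgeR adjusted p = 0.00305). Of 8 cyclin-dependent kinase inhibitors tested, 2 were called higher in double knockout organoids (Cdkn1a and Cdkn2b) and 1 lower (Cdkn2c), with a median of 0.00; in Cdk8-/- organoids Cdkn1a was called higher and Cdkn2c and Cdkn1b lower, and after 24 h of Senexin B, where 7 were tested, Cdkn1c was called higher and Cdkn1a lower. Cdkn1a (p21) thus went the other way in the experiments: it rose from 138, 152 and 116 to 369, 382 and 344 CPM in the libraries labelled double knockout (1.43 ± 0.13, edgeR adjusted p = 0.000115) and fell from 206, 159.5 and 164 to 152, 136 and 118 CPM after 24 h of Senexin B (−0.38 ± 0.12, edgeR adjusted p = 0.0296). Cdkn1a was also called higher in Cdk8-/- organoids, at 279, 255 and 321 CPM, where the 40 genes were not called. Cdkn1c (p57) had the smallest p of these inhibitors after 24 h of Senexin B (0.50 ± 0.15).

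**Figure D5:**
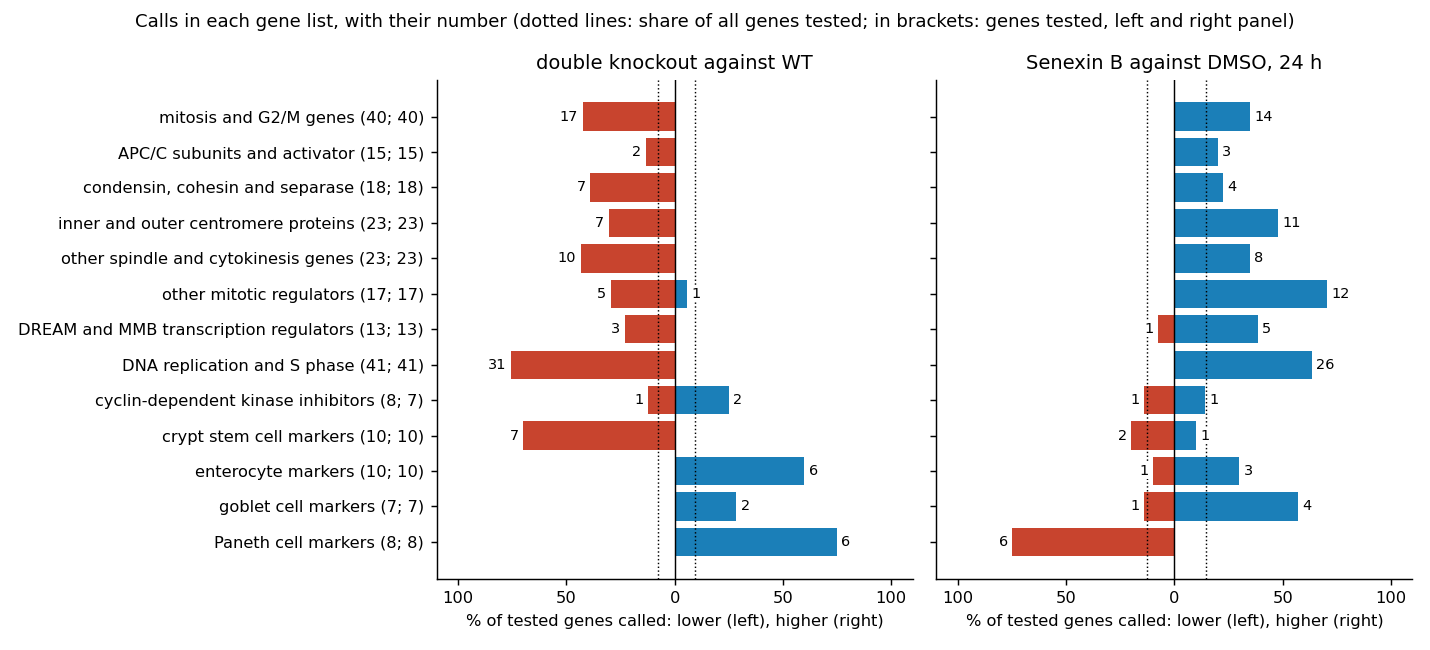
Share of the tested genes of each list that were called lower (left, red) or higher (right, blue) in double knockout against WT organoids and after 24 h of Senexin B against DMSO, with the number called at each bar and, as dotted lines, the share of all genes tested. The replication and mitotic lists point mostly left in the first panel and right in the second, with 31 of 41 S phase genes lower and 26 of 41 higher.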

How the data were processed

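RNA-seq was read from 24 libraries of small intestinal organoids, in 2 experiments of 12. The deposited files hold whole-number read counts per gene (Ensembl 93 annotation, GRCm38.p6) that the authors made with STAR by aligning reads of 50 bases and counting reads on genes; its version is 2.6.0a in the methods and 2.6.0c in the submitters' processing notes. Each table gives 3 counts of a gene, 1 unstranded and 1 per strand, and that of the second strand was taken for both experiments. The genotype libraries are unstranded (49.6% to 49.7% of strand-assigned reads on that strand), so this column holds about 1 in 2 of their gene reads and an antisense gene cannot be told apart; the Senexin B libraries are stranded (87.9% to 90.5%). The labels name oligo(dT) selection and, for the Senexin B samples, rRNA-depleted total RNA.

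Each experiment was fitted on its own with edgeR 4.0.16 (filterByExpr, TMM, quasi-likelihood test, group as the only term, 12 libraries), and p-values were adjusted by Benjamini-Hochberg over all 15602 or 15467 genes; a gene was called at an adjusted p under 0.05. Errors of fold changes are standard errors from the F statistic. CPM use TMM library sizes. DESeq2 1.42.0 was an alternative, with other filters, size factors, the unstranded column, a replicate block, only the groups compared, and each library left out. The scripts were tested on simulated data. Same-numbered Senexin B and DMSO libraries of 1 time deviated together (lowest correlation 0.101 at 16 h and 0.137 at 24 h; the highest between libraries of different number was 0.154 and 0.147), a pairing known from the correlations only, so blocked values stand beside results they change. Groups came from the labels. Named genes are the set of 8 cyclins, kinases and proliferation genes, the 6 smallest p-values called in each comparison, its largest rise and fall, and the gene with the smallest p of each list. The genes and lists were chosen with earlier results of these data known.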

Additional observations from a re-analysis of the deposited data

How the results depend on the processing

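For counts of the 40 genes called, leaving out each library in turn gave 0 to 4 in Cdk19-/- against WT, 3 to 13 in double knockout against WT, 0 to 22 in double knockout against Cdk8-/- and 10 to 25 against Cdk19-/- organoids, 0 to 4 for the part beyond the sum of both knockouts, 0 to 1 for Senexin B at 16 h, 9 to 16 at 24 h and 0 to 9 for DMSO at 24 h against 16 h. Of all genes, 0% to 1.77% were called higher in the first of these comparisons. In the next 4, 4.01% to 7.04%, 0.0188% to 3.22%, 6.5% to 12.6% and 0% to 1.14% were called lower. With Senexin B 2.66% to 6.3% were called higher at 16 h and 9.64% to 13.2% at 24 h. Between the DMSO times 1.59% to 7.6% were called lower and 1.17% to 7% higher. Without both libraries that had Cdk19 at the WT level the counts were 3 in Cdk19-/- against WT, 8 in double knockout against WT and 3 for the part beyond the sum. With no filter on low counts 1 gene was called higher in Cdk8-/- organoids (2.5% of all genes were), 2 lower for the part beyond the sum (0.601%) and 2 higher for Senexin B at 16 h (2.79%), so that the first is at the share of all genes and the last is not far from it. DESeq2 called 1 gene in Cdk8-/- organoids and 1 for the part beyond the sum. With only the groups compared in the fit 1 was called higher in Cdk8-/- organoids (3.25% of all genes were), 0 for Senexin B at 16 h and 0 between the DMSO times. With the replicate block 4 were called for Senexin B at 16 h and 14 between the DMSO times (13 lower, 1 higher). Among the genotypes the replicate numbers did not pair the libraries. For the double knockout the block gave 16 calls against WT (7.88% of all genes were called lower) and 27 against Cdk19-/- organoids (11%). Without replicate 1 of every group, chosen after seeing the data, 5 genes were called for Senexin B at 16 h (4 lower, 1 higher) and 7 for the difference between its effects at 24 h and 16 h. The share of these genes' windows with a CHR element was 40% before the start alone. The causes were not tested, except that leaving libraries out leaves fewer samples.

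The medians of the 40 genes moved by less than the SD between replicates under each alternative run. That SD was 0.16 for the genotypes, with Cdk8-/- replicate 3 in it, and 0.11 for the Senexin B experiment. Leaving out 1 of 3 libraries moves a group mean by less than that library deviates from it, so staying under the SD does not show stability. Some medians came near 0 or changed sign when 1 library was left out: the median was −0.14 to 0.07 in Cdk8-/- organoids (0.07 without Cdk8-/- replicate 3), 0.01 to 0.10 in Cdk19-/- organoids (0.01 without Cdk19-/- replicate 2), and, without DMSO replicate 1 of the time, −0.02 for Senexin B at 16 h and 0.07 at 24 h. Without DMSO replicate 1 of 24 h it was 0.06 for the difference between these effects and −0.04 for DMSO at 24 h against 16 h. Of the values of single genes under alternatives, 340 kept their side of the threshold, 38 lost it and 13 gained it, and 0 changed direction while called. The comparisons of 2 effects use all 4 groups, so no fit with fewer groups was run for them. With 3 libraries a group, the median standard error was 0.14 on the log2 scale for the double knockout and 0.10 for Senexin B at 24 h, which limits what changes of this size could pass.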
